A study of Homo sapiens with 12 samples.

Results

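The RNA of H9 cells labelled siP300+OGA was compared with that of the control siRNA group, siNC, to see which genes still differed from control cells. H9 is an established human embryonic stem cell line. The genes described are those whose FPKM averaged 1 or more over the 6 libraries of these groups, 13008 of the 62753 genes in the expression table. FPKM is a read count divided by gene length and a measure of library size, so levels of different genes can be set side by side. The genotype field gives WT for siNC and OGA overexpression for siP300+OGA, and the design text names an EP300 siRNA (siEP300) in the latter. Neither the OGA construct nor the time after transfection is given in the sources read. The other groups of the series, siOGA (OGA knockdown) and siP300 (EP300 knockdown), are used only to show where the genes stood without added OGA. Each of the 4 groups held 3 libraries. The growth labels of all groups give PXGL, a medium with PD0325901 (a MEK inhibitor), XAV939 (a tankyrase inhibitor), a protein kinase C inhibitor and human LIF, over a layer of mouse embryonic fibroblasts. The titles name PXGL for siNC, siOGA and siP300 but not for siP300+OGA. The labels do not say that the libraries of a group came from separate cultures, so the p-values measure only the spread between these libraries. All cells were of 1 line, and in RNA from whole cultures fewer cells of a type and less RNA per cell cannot be told apart.

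O-GlcNAc is a single sugar that OGT adds to serines and threonines of nuclear and cytoplasmic proteins and that OGA removes. EP300 and its close relative CREBBP are acetyltransferases that acetylate histones at enhancers and promoters. Naive human stem cells resemble the epiblast of the blastocyst and express factors such as KLF17, DPPA5 and DNMT3L, while primed cells resemble a later epiblast and express genes such as SFRP2, FZD7 and ZIC2.

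The 6 libraries held 16597204 to 17867613 reads in genes, recovered from the steps of the FPKM values. No library repeated another, and between libraries of a group a gene's SD had a median of 0.070 (log2) in siNC and 0.061 in siP300+OGA. The pluripotent markers were present in both groups: POU5F1 (OCT4) was at 429.9 ± 23.4 FPKM in siNC and 427 ± 6.13 in siP300+OGA (mean ± SD, n = 3, as throughout). Of the naive markers, DPPA5 was at 577 and 382 FPKM. Genes of mitochondrial DNA took 5.25% to 6.0% of the reads in siNC and 7.17% to 7.32% in siP300+OGA.

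The targeted genes were examined first. EP300 was at 23.1, 23.6 and 23 FPKM in the siNC libraries and 15.4, 15.1 and 15.7 in siP300+OGA, 66.4% of the control mean. The groups did not overlap, and the log2 difference was -0.56 ± 0.03 (SE; limma on log2(FPKM + 1), Benjamini-Hochberg adjusted p = 3.2e-08). EP300 was at 13.3 ± 0.108 FPKM in siP300, below siP300+OGA by a log2 difference that also passed (siP300+OGA minus siP300, 0.20 ± 0.03). OGA was at 40.1, 41 and 40.5 FPKM in siNC and 44.6, 43.6 and 43.1 in siP300+OGA. The siP300+OGA libraries were the higher ones without overlap, but by a log2 difference of only 0.11 ± 0.05, which did not pass (limma, adjusted p = 0.11). That difference did pass in a fit of only the 6 libraries, with sample weights, with regional medians removed and on recovered reads, at log2 0.09 to 0.14 over all alternatives. Whether the construct's RNA could be counted at this gene is not known. In siOGA the same gene stood at 8.1 ± 0.771 FPKM. OGT, the enzyme that adds the sugar, was at 57.5 ± 1.31 FPKM in siNC and 45.7 ± 0.378 in siP300+OGA (log2 -0.33). It lies on chromosome X, where genes were lower on the whole, and its difference was -0.07 and did not pass once regional medians were removed. CREBBP was higher, at 9.65, 10.1 and 9.83 FPKM in siNC against 16.4, 17.1 and 17.1 in siP300+OGA (log2 0.72 ± 0.03; limma, adjusted p = 1.2e-08). All 3 siP300+OGA libraries lay above all 9 others, with siP300 at 14.3 ± 0.364 FPKM.

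Most genes differed from control, and most by little. At an adjusted p under 0.05 (limma, two-sided, Benjamini-Hochberg over the 13008 genes), 7950 genes or 61.1% passed. Of these, 3982 were higher (30.6%) and 3968 lower (30.5%) in siP300+OGA, and the median difference over all genes was -0.0047. A log2 difference of at least 1 was reached by 336 higher genes (2.58%) and 330 lower genes (2.54%). Differences of at least 2 were found for 27 higher and 21 lower genes. The comparison of siP300 with siNC, which shares the siNC libraries, called 8503 genes (65.4%; 28.8% higher and 36.5% lower), with 503 higher (3.87%) and 406 lower (3.12%) by at least 1. Between siP300+OGA and siP300, 6136 genes passed (47.2%; 27.6% higher and 19.5% lower), 64 higher (0.492%) and 123 lower (0.946%) by at least 1. The libraries of siP300+OGA and siNC did not overlap for 8819 genes (67.8%). Protein-coding genes made up 10773 of the genes tested, with 3618 higher and 3451 lower. Of 1133 lncRNA genes 219 were higher and 339 lower.

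**Figure D1:**
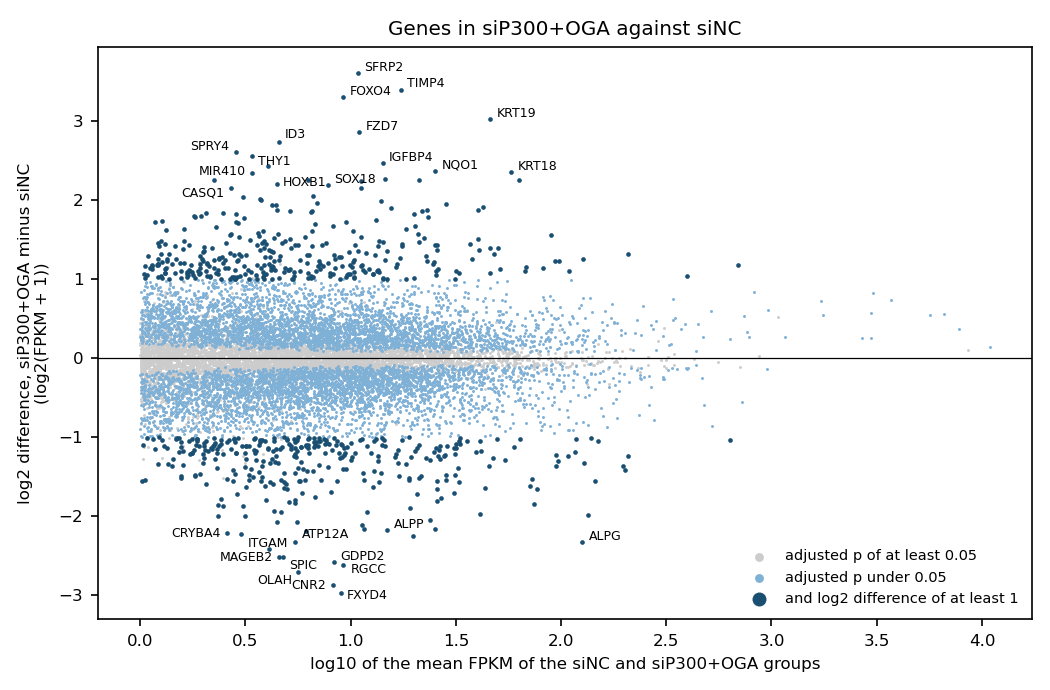
Each point is 1 of the 13008 genes, with the log10 of its mean FPKM on the x axis and the log2 difference (siP300+OGA minus siNC, on log2(FPKM + 1)) on the y axis; colours give the limma adjusted p and a difference of at least 1. Higher and lower genes are about equal in number, and the largest differences run from 3.61 for SFRP2 to -2.97 for FXYD4.

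SFRP2, a secreted WNT antagonist typical of primed cells, had the largest rise. It was at 0.955, 0.984 and 0.496 FPKM in siNC and 20.3, 21 and 21.5 in siP300+OGA (log2 3.61 ± 0.10; limma, adjusted p = 2.7e-10). The WNT receptor FZD7, another primed marker, was at 1.76, 2.09 and 1.84 FPKM in siNC and 20, 18.6 and 21.5 in siP300+OGA (log2 2.86 ± 0.06). Neither gene overlapped between the groups, and both were also high in siP300 (16.8 and 24.3 FPKM) and in siOGA (23.7 and 21.2 FPKM). KRT19, a keratin of simple epithelia, was at 9.61, 9.97 and 8.3 FPKM in siNC and 84.1, 83.1 and 80.7 in siP300+OGA (log2 3.03 ± 0.06). It was at 96 ± 3.56 FPKM in siP300 but at 6.51 ± 0.419 in siOGA, so the high libraries were those of the EP300 siRNA. NQO1, a quinone reductase that NRF2 switches on, was likewise highest with the EP300 siRNA, with 7.49 ± 0.142 FPKM in siNC, 47.1 ± 0.81 in siP300, 43 ± 0.748 in siP300+OGA and 11.7 ± 1 in siOGA (log2 2.37 against siNC).

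Several of the largest rises stood higher in siP300+OGA than in siP300. FOXO4, a forkhead factor held in check by AKT, was at 1.01, 0.888 and 0.752 FPKM in siNC, 10.6, 10.4 and 9.23 in siP300 and 18.5, 16.9 and 17.3 in siP300+OGA (log2 3.30 ± 0.06 against siNC and 0.75 ± 0.06 against siP300). IGFBP4, which binds insulin-like growth factors, was at 3.69 ± 0.75, 13.4 ± 0.552 and 24.8 ± 0.566 FPKM in the same order of groups. THY1, a surface marker of primed cells, went from 0.277 ± 0.0235 through 3.51 ± 0.227 to 6.51 ± 0.304 FPKM. For FOXO4, IGFBP4 and THY1 all 3 siP300+OGA libraries lay above all 9 others. ID3, an inhibitor of basic helix-loop-helix factors, was lower in siP300+OGA than in siP300 and yet far above control, at 0.328, 0.488 and 0.545 FPKM in siNC, 26.5, 24.6 and 25.8 in siP300 and 9.35, 8.25 and 8.34 in siP300+OGA (log2 2.73 ± 0.08 against siNC).

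Several of the largest falls brought genes expressed in control cells to a mean under 2 FPKM. FXYD4, a regulator of the sodium pump, was at 18.1, 15.5 and 16.3 FPKM in siNC and 1.9, 1.42 and 0.61 in siP300+OGA (log2 -2.97 ± 0.17; limma, adjusted p = 8.7e-08). CNR2, a cannabinoid receptor, was at 15.6, 15.2 and 14.9 FPKM in siNC and 1.21, 1.17 and 1.3 in siP300+OGA (log2 -2.87 ± 0.05). RGCC, a regulator of the cell cycle, was at 15.2, 16.5 and 17.7 FPKM in siNC and 1.83, 1.55 and 2.19 in siP300+OGA (log2 -2.61 ± 0.08). The control libraries were high and the siP300+OGA libraries low without overlap for each of these, and siP300 was also low, at 1.67, 1.57 and 3.36 FPKM. FXYD4 was at 13.6 ± 1.23 FPKM in siOGA, closer to control, while CNR2 was at 2.89 ± 0.171. SPIC, an ETS factor, was at 8.82 ± 0.608 FPKM in siNC and 0.731 ± 0.211 in siP300+OGA. The proton pump gene ATP12A was at 9.75 ± 0.397 and 1.16 ± 0.248 FPKM. ITGAM, the alpha chain of a leukocyte integrin, was at 5.63 ± 0.237 and 0.415 ± 0.0709 FPKM. GDPD2, a phosphodiesterase gene on chromosome X, was at 15.1 ± 0.438 and 1.7 ± 0.309 FPKM (log2 -2.58).

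A smaller number of genes was displaced in siP300+OGA beyond every other library of the series. All 3 siP300+OGA libraries lay above all 9 others for 1402 genes (10.8%) and below them for 1035 (7.96%). TIMP4, an inhibitor of matrix metalloproteases, was at 2.56, 2.11 and 1.85 FPKM in siNC, 5.17, 5.44 and 7.52 in siP300 and 31.6, 32.2 and 33.3 in siP300+OGA. Its log2 difference was 3.40 ± 0.13 against siNC and 2.26 ± 0.13 against siP300 (limma, adjusted p = 2.8e-09 and 2e-07). HOXB1, a homeobox gene of the hindbrain, was at 0.679, 0.971 and 1.22 FPKM in siNC, 1.33, 1.13 and 1.43 in siP300 and 7.63, 8.14 and 8.04 in siP300+OGA (log2 2.20 ± 0.10 against siNC). SOX18, an endothelial factor, rose from 2.16 ± 0.456 to 13.4 ± 0.323 FPKM, with siP300 at 4.05 and siOGA at 0.718. CASQ1, a calcium-binding protein of the muscle reticulum, rose from 0.348 ± 0.0494 to 5.03 ± 0.675 FPKM. In the other direction, OLAH, a thioesterase that releases medium-chain fatty acids, was at 10.6, 10.6 and 10.3 FPKM in siNC, 7.75, 7.36 and 7.13 in siP300 and 0.604, 0.686 and 1.04 in siP300+OGA (log2 -2.70 ± 0.08 against siNC). The alkaline phosphatase genes ALPG and ALPP, which mark naive cells, were also lower. ALPG was at 212, 216 and 206 FPKM in siNC and 41.1, 41.5 and 41.4 in siP300+OGA, with siP300 between at 120.4, and ALPP was at 23.5, 25.4 and 26.3 FPKM in siNC and 5.18, 4.07 and 5.14 in siP300+OGA, with siP300 at 14.3. ALPG and ALPP are near-identical copies, so the split of reads between them is uncertain.

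Other genes sat near the siP300 level, with no difference from it that passed. Among the 200 largest differences from control, those with the smallest difference from siP300 were picked for this, so their likeness to siP300 is a description. FADS2, a fatty acid desaturase, was at 11.1 ± 0.637 FPKM in siNC, 33.5 ± 0.199 in siP300 and 33.5 ± 0.438 in siP300+OGA (log2 1.52 ± 0.05 against siNC). Its difference from siP300 had a 95% interval of -0.10 to 0.10. ZCCHC3, a nucleic acid-binding protein, was at 5 ± 0.432, 22.5 ± 0.646 and 22.7 ± 0.81 FPKM. NAT8L, which makes N-acetylaspartate, was at 1.24 ± 0.0387, 7.48 ± 0.337 and 7.6 ± 0.348 FPKM. PYGB, the brain form of glycogen phosphorylase, fell from 218, 226 and 206 FPKM in siNC to 73.6, 72 and 72.6 in siP300+OGA (log2 -1.56 ± 0.04), with siP300 at 72 ± 2.39. NGEF, a guanine nucleotide exchange factor, fell from 9.53 ± 0.51 to 2.24 ± 0.359 FPKM with siP300 at 2.22 ± 0.255. GDF11, a TGF-beta family ligand, rose from 2.47 ± 0.131 to 8.36 ± 0.0817 FPKM, and the lens crystallin gene CRYBA4 fell from 4.91 ± 0.93 to 0.264 ± 0.0476.

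**Figure D2:**
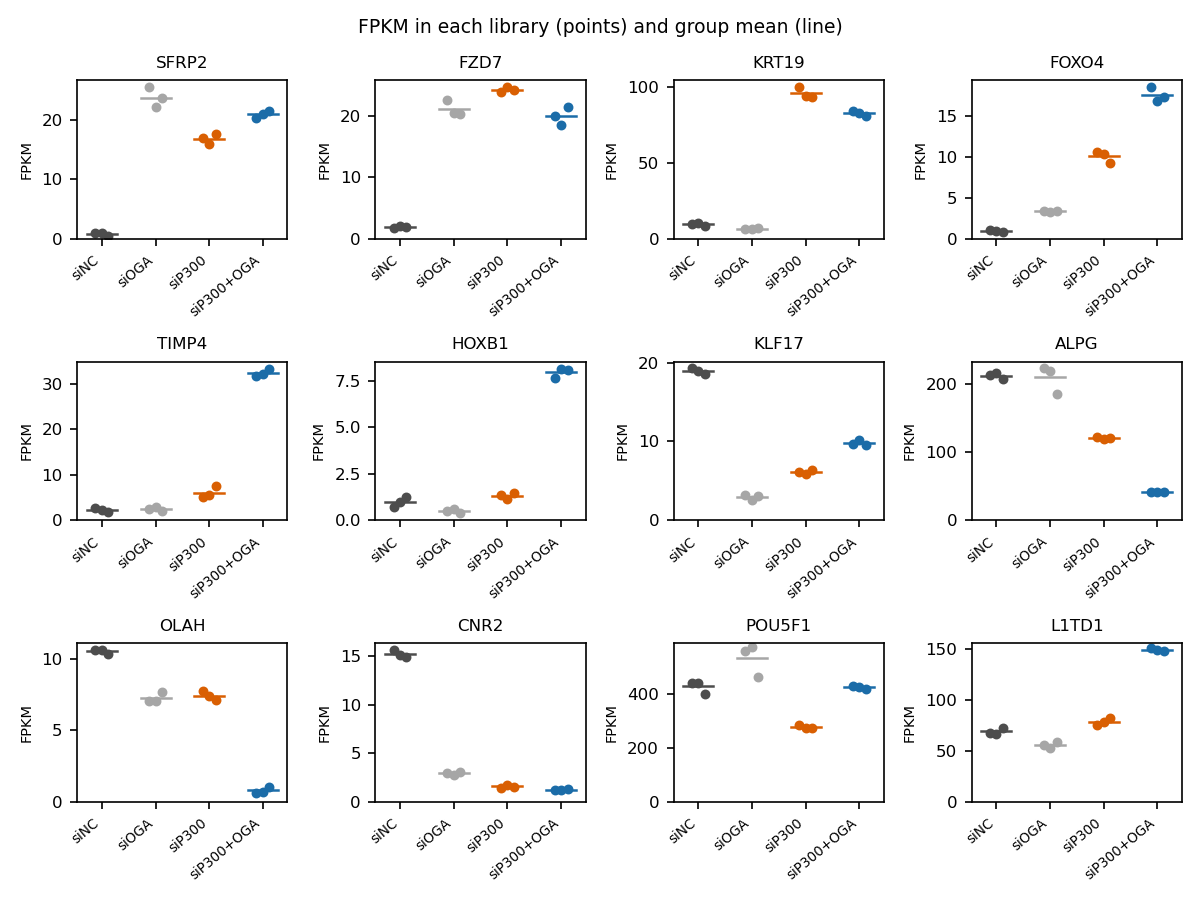
FPKM of 12 genes in each of the 12 libraries, 1 panel a gene, by group (points, libraries; lines, group means; axes start at 0). SFRP2, FZD7 and CNR2 lie away from siNC in all 3 other groups, KRT19 is high with the EP300 siRNA, and TIMP4, HOXB1, ALPG, OLAH and L1TD1 stand apart most in siP300+OGA.

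The series title names pluripotency states, and most naive markers were below control. Of 28 listed genes 27 were tested, with 24 lower and 3 higher (against 30.5% and 30.6% of all genes), and a median log2 difference of -1.04 against -0.0047 for all genes. In siP300 the median of the same list was -0.89, against the same control libraries. A gene low in 1 group passed the expression minimum only through the other group and so had to differ, which holds here for OLAH, MAEL and ARGFX. Among members at 1 FPKM or more in both groups, 3 of 24 were higher and 21 lower (median -1.04). KLF17, a factor of the human naive state, was at 19.3, 19 and 18.6 FPKM in siNC, 6.15, 5.88 and 6.35 in siP300 and 9.69, 10.2 and 9.52 in siP300+OGA (log2 -0.89 ± 0.06 against siNC and 0.60 ± 0.06 against siP300). KLF4 was at 28.7 ± 0.93 FPKM in siNC and 9.2 ± 0.545 in siP300+OGA (log2 -1.54), close to the 8.58 of siP300. DNMT3L, a cofactor of DNA methylation, was at 284, 298 and 268 FPKM in siNC and 107, 109 and 113 in siP300+OGA (log2 -1.36 ± 0.05). For each of these the control libraries were the higher without overlap. SUSD2, the surface protein used to sort naive cells, fell from 47.2 ± 1.78 to 17.4 ± 0.497 FPKM. DPPA5 fell from 577 ± 24.9 to 382 ± 12.5 FPKM with siP300 at 248 ± 8.51. DPPA3, which in the mouse keeps DNA methylation in order in oocyte and zygote, fell from 291 ± 18.9 to 123 ± 0.159 FPKM with siP300 at 74.7 ± 3.34. KLF5 was instead lowest in siP300+OGA, at 23.4 ± 0.753, 16.9 ± 0.753 and 9.22 ± 0.353 FPKM in siNC, siP300 and siP300+OGA. Against siP300, 13 of the 27 naive genes were higher in siP300+OGA and 5 lower, against 27.6% and 19.5% of all genes. The exceptions to the direction of the list were KHDC3L, a maternal-effect gene, at 74.9, 71.9 and 75.4 FPKM in siNC and 179, 175 and 182 in siP300+OGA (log2 1.26 ± 0.04), and SOX15 and ZNF534 with smaller rises of 0.30 and 0.53. TBX3 was under the expression minimum.

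The core pluripotency genes split. Of 13 tested, 6 were higher and 6 lower, against 30.6% and 30.5% of all genes, with a median of -0.0087. All 13 were higher in siP300+OGA than in siP300, against 27.6% of all genes. POU5F1 did not differ beyond its spread, at 443, 444 and 403 FPKM in siNC and 432, 428 and 420.3 in siP300+OGA, a log2 difference of -0.0087 with a 95% interval of -0.16 to 0.15. These libraries overlapped, whereas siP300 stood at 278 ± 7.42 FPKM. NANOG remained low, at 41.8, 41.4 and 49.4 FPKM in siNC against 19, 19.3 and 17.1 in siP300+OGA (log2 -1.21 ± 0.07), with siP300 at 12.5. PRDM14 (log2 -0.86) and the NODAL coreceptor TDGF1 (-0.79), known as CRIPTO, were also lower. L1TD1, an RNA-binding protein of stem cells, was at 67.9, 67 and 72.6 FPKM in siNC and 151, 149 and 148 in siP300+OGA (log2 1.10 ± 0.05), above all 9 other libraries. UTF1, a chromatin protein of pluripotent cells, rose from 189.8 ± 0.862 to 300.5 ± 9.97 FPKM. The telomere protein gene TERF1 rose from 14.1 ± 0.291 to 26 ± 0.875 FPKM, and the PRC2 cofactor gene JARID2 from 39 ± 2.8 to 65.8 ± 2.31. SOX2 was at 93.9 ± 2.28 and 85.7 ± 1.86 FPKM, a difference of -0.13 that passed here but not in 5 of the 19 alternatives, among them removal of regional medians.

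Primed markers were mostly above control. Of 16 tested of 23 listed, 13 were higher and 2 lower, against 30.6% and 30.5% of all genes. The median was 0.89, and 0.84 in siP300 against the same controls. SFRP2, THY1 and HAS3 passed the minimum only through siP300+OGA, and among members at 1 FPKM or more in both groups 10 of 13 were higher and 2 lower (median 0.64). Beside SFRP2, FZD7 and THY1, the phosphatase receptor gene PTPRZ1 was at 3.52, 3.53 and 3.42 FPKM in siNC and 18.3, 19.6 and 19.1 in siP300+OGA, passing as higher against siNC (log2 2.16) and against siP300 (1.06). SALL2, a zinc finger factor, was at 5.97 ± 0.115 and 25.2 ± 0.66 FPKM, and the hyaluronan synthase gene HAS3 at 0.868 ± 0.173 and 6.56 ± 0.234. The siP300+OGA libraries were high for each of these without overlap. NEFL (log2 -0.37), a neurofilament gene, was lower, as was NLGN4X (-0.26, on chromosome X), though not once regional medians were removed. Other primed genes were near or below control and under the expression minimum. ZIC2, the classic primed factor, was at 0.68 ± 0.162 FPKM in siNC, 0.33 ± 0.0858 in siP300+OGA, 1.7 in siP300 and 12.1 in siOGA. The intermediate filament gene VIM was at 1.06, 0.726 and 0.798 FPKM in siNC and 1.03, 0.951 and 0.851 in siP300+OGA, which overlap, against 14.7, 14.4 and 15.9 in siP300. N-cadherin (CDH2) was at 0.414 and 0.262 FPKM against 3.57 in siP300. The de novo methyltransferase gene DNMT3B was at 337 ± 11 FPKM in siNC and 350.2 ± 3.92 in siP300+OGA (log2 0.054, not passed), against 159.9 ± 2.13 in siP300.

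**Figure D3:**
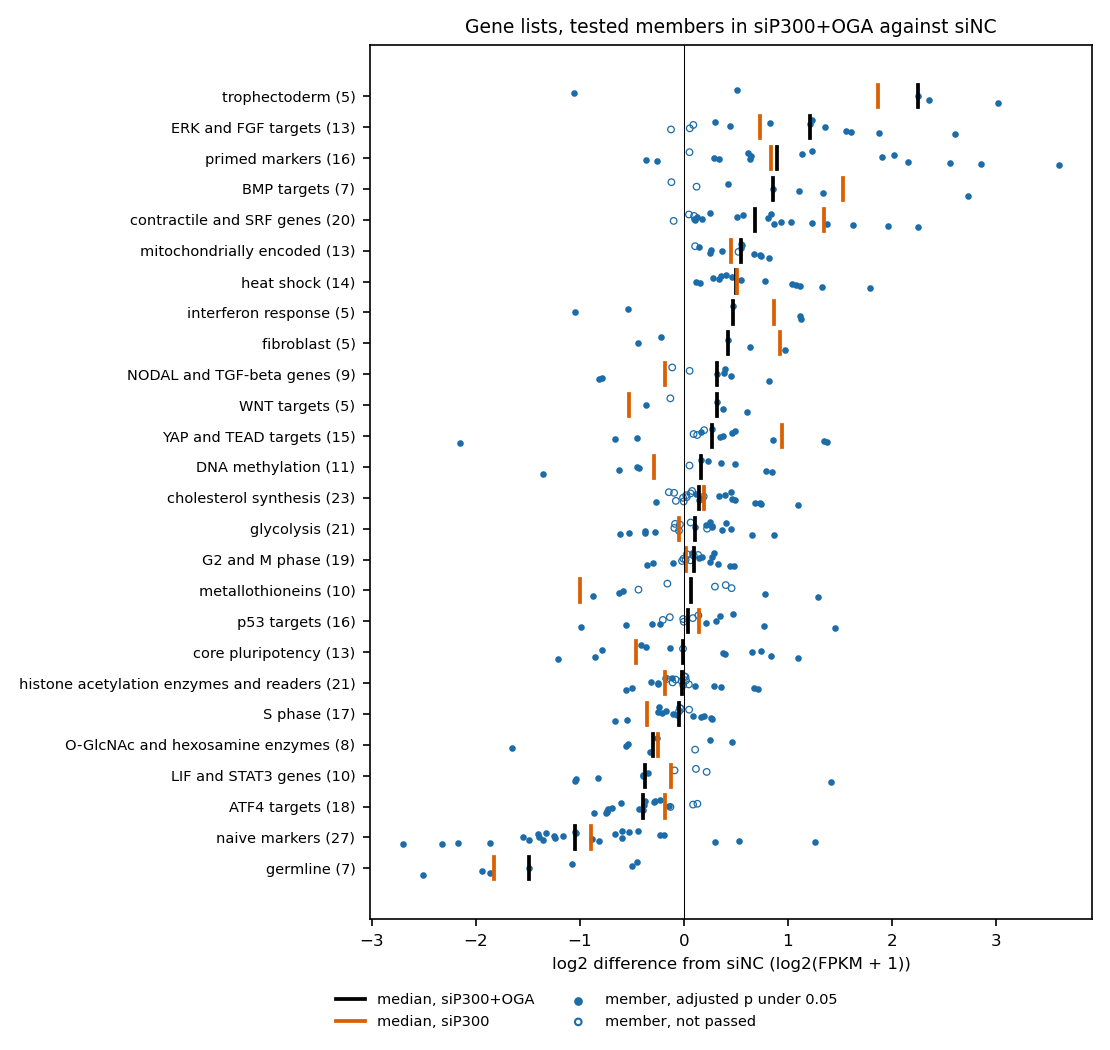
Log2 difference from siNC of the tested members of each gene list with at least 5 of them (blue points, siP300+OGA; filled where limma's adjusted p was under 0.05), with the list median in siP300+OGA (black bar) and in siP300 (orange bar). Germline and naive genes lie to the left in both groups, and the orange and black bars part most for the metallothioneins, WNT, YAP, BMP and contractile lists.

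LIF signals through IL6ST and LIFR to JAK1 and STAT3 and helps to hold the naive state. Of the 10 genes of this pathway, 6 were lower and 1 higher, against 30.5% and 30.6% of all genes (median -0.37). LIFR passed the minimum only through siNC, and among members at 1 FPKM or more in both groups 1 of 9 were higher and 5 lower (median -0.35). The shared receptor chain IL6ST was at 7.73, 7.38 and 8.27 FPKM in siNC and 3.39, 3.2 and 3.24 in siP300+OGA (log2 -1.04 ± 0.05), below all 9 other libraries. LIFR (log2 -0.40), JAK1 (-0.40) and STAT3 (-0.35) were lower too, as were the targets BCL3 (-1.05) and PIM1 (-0.83). JAK1 lies on chromosome 1 where the 56 tested genes from 60 to 80 Mb had a median of -0.24, and its difference was -0.15 with regional medians removed. SOCS1, a feedback inhibitor, was the exception, at 7.8, 6.4 and 6.54 FPKM in siNC and 18.5, 19.3 and 22.6 in siP300+OGA (log2 1.42 ± 0.09).

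Genes that follow ERK, the kinase below MEK, were next examined, since the MEK inhibitor is named for all groups. Of 13 tested of 18, 10 were higher and 0 lower, against 30.6% and 30.5% of all genes (median 1.21, and 0.73 in siP300). SPRY4, FOS and ETV1 passed the minimum only through siP300+OGA, and among members at 1 FPKM or more in both groups 7 of 10 were higher and 0 lower (median 0.63). The list median ran from 0.46 to 1.57 over the alternatives. IER3, among the higher, lost its call in 13 of the 18 alternatives that tested it. SPRY1 passed as lower under quantile normalization and with no intensity trend. SPRY4, a feedback inhibitor of the pathway, was at 0.0831, 0.103 and 0.0533 FPKM in siNC, 1.75, 1.58 and 1.91 in siP300 and 5.67, 6.31 and 4.84 in siP300+OGA (log2 2.61 ± 0.08). The cyclin gene CCND1 was at 16.3, 17.1 and 16.6 FPKM in siNC and 64.6, 63.9 and 63.1 in siP300+OGA (log2 1.88 ± 0.03). Both were above all 9 other libraries. MYC rose from 2.16 ± 0.224 to 6.46 ± 0.538 FPKM, FOS from 0.869 ± 0.183 to 4.48 ± 0.365 and PHLDA1 from 1.38 ± 0.0782 to 6.27 ± 0.256. The ETS factor ETV4 was at 18.6 ± 1.2 FPKM in siNC, 7.82 ± 0.118 in siP300 and 33.6 ± 1.13 in siP300+OGA, so it was below control in 1 group and above it in the other.

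NODAL and WNT genes had list medians above control in siP300+OGA and below it in siP300. Of 9 NODAL and TGF-beta genes tested, 5 were higher and 2 lower than control, against 30.6% and 30.5% of all genes. Their median was 0.32, and -0.18 in siP300. Among members at 1 FPKM or more in both groups 4 of 8 were higher and 2 lower (median 0.19). The feedback inhibitors LEFTY1 and LEFTY2, close copies whose reads may be shared, were at 11.1 ± 1.34 and 65.6 ± 0.138 FPKM in siNC and at 20.3 ± 0.851 and 86.3 ± 2.17 in siP300+OGA (log2 0.82 and 0.39). TDGF1 and GDF3 were lower (-0.79 and -0.81). Of 5 WNT targets tested of 14, 3 were higher and 1 lower (median 0.32; -0.53 in siP300). AXIN2, a direct target that restrains the pathway, was at 12.7, 13 and 12 FPKM in siNC, 8, 7.25 and 7.53 in siP300 and 16.9, 14.9 and 15.9 in siP300+OGA. TCF7 was at 4.72 ± 0.159, 3.28 ± 0.151 and 6.43 ± 0.123 FPKM in the same order. NKD2, another inhibitor, was lower (log2 -0.36).

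The 4 ID genes, direct targets of BMP signalling, were above control and below their siP300 level. Of 7 BMP targets tested of 12, 5 were higher and 0 lower, against 30.6% and 30.5% of all genes. Their median was 0.86, and 1.53 in siP300. ID3 passed the minimum only through siP300+OGA, and among members at 1 FPKM or more in both groups 4 of 6 were higher and 0 lower (median 0.64). The list median ran from 0.18 to 1.13 over the alternatives. ID1 was at 42.2, 41.3 and 43.3 FPKM in siNC, 126, 121 and 125 in siP300 and 92.1, 92 and 92.8 in siP300+OGA (log2 1.11 ± 0.04 against siNC). ID2 was at 1.08 ± 0.109, 13 ± 0.43 and 4.26 ± 0.29 FPKM, and ID4 at 1.25 ± 0.116, 10.8 ± 0.101 and 3.08 ± 0.158. The 3 groups did not overlap for any of the 4 ID genes. SMAD7, an inhibitor of the pathway, was the 1 member higher in siP300+OGA than in siP300 (log2 0.42 against siNC).

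Genes of the contractile apparatus, many of them driven by the serum response factor SRF through an element called the CArG box, were above control by less in siP300+OGA than in siP300. Promoters of 3 of them are shown because the CArG box, in capitals, lies in each (RefSeq, GRCh38.p14, from 250 bases before the gene's start to 50 after it, read 5′ to 3′ along the gene).
ACTA1 promoter, chr1:229434045-229434344, minus strand: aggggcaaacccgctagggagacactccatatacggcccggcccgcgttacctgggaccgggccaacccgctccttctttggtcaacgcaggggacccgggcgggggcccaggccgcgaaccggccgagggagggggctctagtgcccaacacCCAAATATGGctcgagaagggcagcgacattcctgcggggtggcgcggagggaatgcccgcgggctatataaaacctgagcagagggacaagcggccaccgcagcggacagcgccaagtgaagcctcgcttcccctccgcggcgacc
ACTG2 promoter, chr2:73892758-73893057, plus strand: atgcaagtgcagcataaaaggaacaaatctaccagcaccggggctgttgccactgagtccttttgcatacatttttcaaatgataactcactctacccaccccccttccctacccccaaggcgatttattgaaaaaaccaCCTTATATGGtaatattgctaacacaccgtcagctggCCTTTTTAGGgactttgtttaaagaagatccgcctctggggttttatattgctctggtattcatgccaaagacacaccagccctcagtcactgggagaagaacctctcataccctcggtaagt
ACTC1 promoter, chr15:34795500-34795799, minus strand: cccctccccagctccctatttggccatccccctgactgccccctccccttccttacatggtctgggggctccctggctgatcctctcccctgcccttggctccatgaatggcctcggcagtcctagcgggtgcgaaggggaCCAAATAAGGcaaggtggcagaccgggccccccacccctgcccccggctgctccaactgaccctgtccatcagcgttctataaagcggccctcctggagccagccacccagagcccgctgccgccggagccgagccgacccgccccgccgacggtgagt
The box was searched on both strands in all promoters of the table. It was in 351 of 27305 (1.29%) and in 8 of the 19 contractile genes that had a promoter there (42.1%). The list was made of contractile and known SRF genes, so this share is no test of the box. SRF itself, which did not pass, was among the 8. A match is a description of the sequence and not a shown binding site.

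Of 20 contractile genes tested of 22, 17 were above control in siP300+OGA and 0 below (median 0.69), against 30.6% and 30.5% of all genes. ACTG2, ACTC1 and TAGLN passed the minimum only through siP300+OGA, and among members at 1 FPKM or more in both groups 14 of 17 were higher and 0 lower (median 0.51). All 20 were lower than in siP300, against 19.5% of all genes, and the list median of siP300 against control was 1.35. ACTA1, skeletal muscle actin, was at 1.3, 1.63 and 1.66 FPKM in siNC, 101, 96.9 and 99.6 in siP300 and 10.8, 10.6 and 11.6 in siP300+OGA (log2 2.25 ± 0.06 against siNC; limma, adjusted p = 2.8e-10). ACTC1, cardiac actin, was at 0.553, 0.275 and 0.529 FPKM in siNC, 149.7, 150.2 and 152 in siP300 and 1.71, 1.78 and 1.42 in siP300+OGA (log2 0.86 ± 0.07 against siNC and -5.85 ± 0.07 against siP300). ACTG2, smooth muscle actin, was at 0.1, 0.177 and 0.137 FPKM in siNC, 17.5, 18.2 and 17.3 in siP300 and 2.47, 2.41 and 2.65 in siP300+OGA (log2 1.63 ± 0.08 against siNC). In each the siP300+OGA libraries lay between the other groups without overlap, ACTC1 close to control and ACTA1 further from it. The muscle actins are near-identical in their coding sequence, so the split of reads among them is uncertain. MYL9, a myosin light chain, was at 2.25 ± 0.216, 71 ± 3.44 and 11.7 ± 1.25 FPKM. The calponin gene CNN1 was at 1.32 ± 0.179, 61 ± 1.3 and 4.43 ± 0.159 FPKM, and TAGLN at 0.757 ± 0.203, 34.5 ± 1.1 and 2.56 ± 0.0747. TPM2, a tropomyosin, stayed nearer to siP300, at 13.8 ± 0.316, 45.7 ± 1.72 and 37.4 ± 2.39 FPKM. Beta-actin (ACTB) did so as well, at 585, 603 and 582 FPKM in siNC, 1314, 1299 and 1309.6 in siP300 and 1046, 1056 and 1057 in siP300+OGA (log2 0.83 ± 0.02 against siNC). SRF itself was at 34 ± 1.69 and 35.2 ± 0.924 FPKM in siNC and siP300+OGA (log2 0.048, not passed).

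YAP and TEAD targets, which share stimuli with the SRF genes, gave 9 higher and 3 lower of 15 tested. Of all genes 30.6% were higher and 30.5% lower. The list median was 0.27, and 0.95 in siP300. The matricellular gene CCN1 was at 1.81, 2.09 and 2.03 FPKM in siNC, 41.8, 41.1 and 39.6 in siP300 and 7.02, 6.06 and 6.64 in siP300+OGA (log2 1.35 ± 0.06 against siNC). AMOTL2 was at 1.61 ± 0.196, 13.5 ± 0.663 and 5.77 ± 0.154 FPKM, and AJUBA at 1.43 ± 0.146, 14.9 ± 0.854 and 3.4 ± 0.195. F3, tissue factor, went the other way and stayed there, at 42.7, 39.9 and 42.9 FPKM in siNC and 8.69, 8.61 and 8.55 in siP300+OGA (log2 -2.15 ± 0.05), with siP300 at 11.3 ± 0.698. ANKRD1, a widely used readout of YAP, was under the expression minimum, with overlapping values of 0.152, 0.157 and 0.26 FPKM in siNC and 0.295, 0.166 and 0.379 in siP300+OGA against 25.2, 21.6 and 23.7 in siP300. The list median turned to -0.66 when the expression minimum was raised to 5 FPKM, which leaves fewer members.

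**Figure D4:**
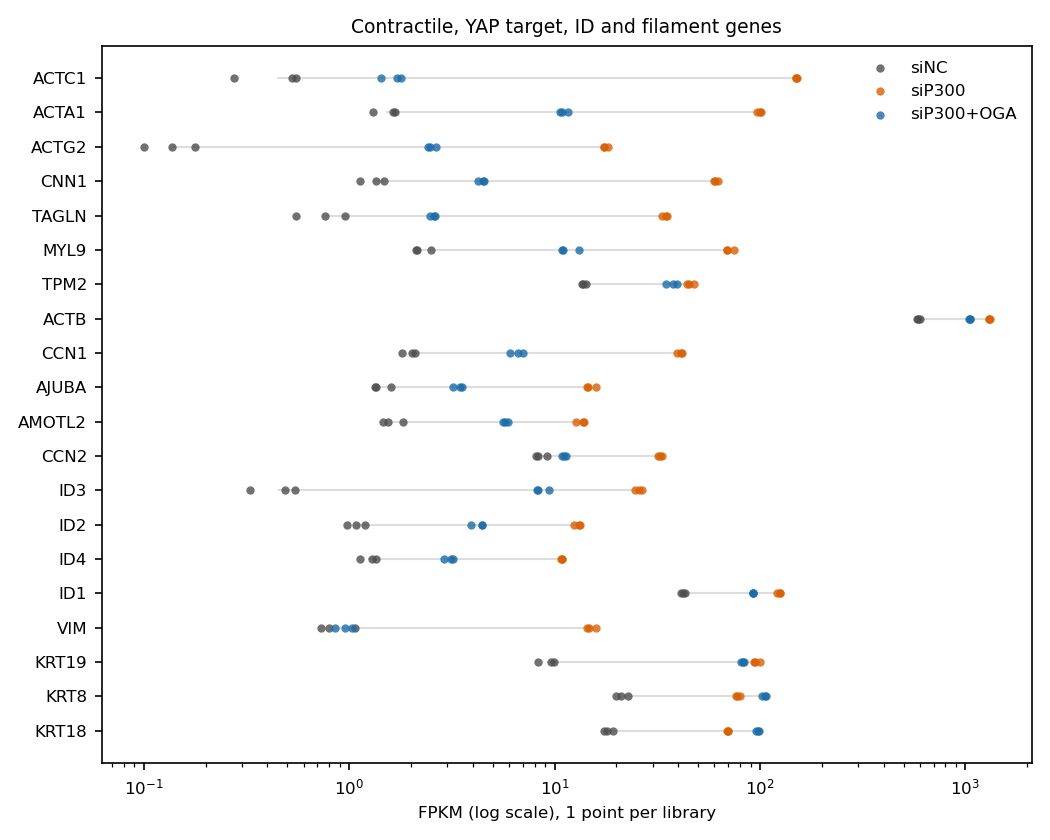
FPKM (log axis) of 20 contractile, YAP target, ID and filament genes, 1 point per library, in siNC (grey), siP300 (orange) and siP300+OGA (blue). The siP300+OGA libraries lie between the other groups for the contractile, YAP target and ID genes, overlap siNC for VIM, and are the highest for KRT8 and KRT18.

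Markers of other lineages were examined by their whole lists. Of 18 trophectoderm genes, 5 were tested, with 4 higher and 1 lower, against 30.6% and 30.5% of all genes. The higher ones were TEAD3 and the keratins KRT8, KRT18 and KRT19, which other epithelia also express. KRT18 was at 19.3, 18 and 17.5 FPKM in siNC and 95.8, 97.5 and 98.8 in siP300+OGA (log2 2.35 ± 0.04), and its partner KRT8 at 21.3 ± 1.45 and 105 ± 2.54 (log2 2.25). Both lie in the part of chromosome 12 where genes were higher on the whole, and with regional medians removed their differences were 1.94 and 1.83. The defining factors CDX2, GATA2, GATA3 and TFAP2A summed to 0.698 to 0.919 FPKM in siNC and 0.760 to 0.902 in siP300+OGA, against 5.36 to 5.68 in siP300. GATA3 was at 0.433, 0.264 and 0.206 FPKM in siNC and 0.156, 0.192 and 0.2 in siP300+OGA, the latter being the lower. The placental hormone gene CGA was at 1.13, 0.933 and 1.35 FPKM in siNC, 10.3, 8.63 and 8.77 in siP300 and 0.148, 0 and 0.0285 in siP300+OGA, again lowest in the last.

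Among mesoderm and neuroectoderm genes only 2 of 17 were tested, and both were higher, MIXL1 passing the minimum only through siP300+OGA. Of all genes tested 30.6% were higher and 30.5% lower. MIXL1, a primitive streak factor, was at 0.776, 0.855 and 0.944 FPKM in siNC and 4.59, 6.24 and 5.3 in siP300+OGA (log2 1.77 ± 0.09). NES, the intermediate filament nestin, was at 20.5 ± 1.07, 108 ± 3.39 and 60.1 ± 1.58 FPKM in siNC, siP300 and siP300+OGA. The other streak and neural factors stayed low, with TBXT at 0.246, EOMES at 0.0533 and PAX6 at 0.0123 FPKM in siP300+OGA. Of 16 hypoblast and endoderm genes 2 were tested, the collagen IV genes COL4A1 (log2 0.47) and COL4A2 (0.53), both higher. The hypoblast factors GATA4, GATA6, SOX17, PDGFRA and FOXA2 summed to 0.534 to 0.571 FPKM in siNC and 1.02 to 1.64 in siP300+OGA. Of the 8-cell-like list only CCNA1 was tested of 12 genes, and it was lower (log2 -1.0).

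Mouse feeder fibroblasts are named for all cultures. A set of 7 fibroblast markers summed to 4.78 to 5.42 FPKM in siNC, 9.88 to 10.1 in siP300+OGA and 30.6 to 31.8 in siP300. Of these, COL1A1 was at 1.86 ± 0.116, 4.61 ± 0.24 and 17.5 ± 0.546 FPKM, and COL1A2 at 3.05 ± 0.265, 5.28 ± 0.172 and 12.7 ± 0.218. The defining genes LUM and DCN were at 0 in all 3 siP300+OGA libraries. LUM was also at 0 in all 3 siNC libraries, and DCN in all 3 of siP300 and all 3 of siOGA. Of 13 listed fibroblast genes 5 were tested, 3 higher and 2 lower (median 0.42), against 30.6% and 30.5% of all genes. COL5A1, among the lower, passed the minimum only through siNC and so had to be lower. Among members at 1 FPKM or more in both groups 3 of 4 were higher and 1 lower (median 0.53). COL1A1 and COL1A2 have the same order of groups as the contractile genes. The part of feeder RNA in the collagens or the contractile genes was not tested.

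Enzymes of O-GlcNAc and its donor sugar moved unequally. Of 8 genes 2 were higher and 5 lower (median -0.29; -0.25 in siP300), and 3 were lower with regional medians removed. GFPT1, the rate-limiting enzyme of the hexosamine pathway, was at 114, 114 and 123 FPKM in siNC, 41.7, 44.2 and 42.8 in siP300 and 36.4, 36.6 and 36.3 in siP300+OGA (log2 -1.66 ± 0.05; limma, adjusted p = 4.4e-10). It was lowest in siP300+OGA, without overlap, and at 125 ± 8.73 FPKM in siOGA. Its relative GFPT2 was higher, at 16.1 ± 0.238 and 22.6 ± 0.613 FPKM. The later enzymes GNPNAT1 (log2 -0.54) and UAP1 (-0.55) were lower. Among 21 histone acetylation enzymes and readers tested of 24, 5 were higher and 7 lower, against 30.6% and 30.5% of all genes (median -0.021). Beside EP300 and CREBBP, the bromodomain reader BRD2 rose from 20.8 ± 0.38 to 33.8 ± 0.63 FPKM and the deacetylase HDAC6, on chromosome X, fell from 7.13 ± 0.416 to 4.73 ± 0.167.

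DNA methylation genes differed by member. Of 11 tested, 6 were higher and 4 lower, against 30.6% and 30.5% of all genes (median 0.16). DNMT3A, a de novo methyltransferase, was at 8.61, 9.08 and 9.02 FPKM in siNC and 16.7, 16 and 15.7 in siP300+OGA (log2 0.79 ± 0.05), above all 9 other libraries. The repair glycosylase gene TDG rose from 8.34 ± 0.856 to 15.8 ± 0.475 FPKM, while the demethylating dioxygenase gene TET1 fell from 48.9 ± 1.13 to 31.4 ± 0.27, beside the fall of DNMT3L. All 7 germline genes tested of 18 were lower than control (median -1.49; -1.83 in siP300), but MAGEB2, MAEL and TDRD1 passed the minimum only through siNC, and among members at 1 FPKM or more in both groups 0 of 4 were higher and 4 lower (median -1.28). MAGEB2, a cancer-testis antigen on chromosome X, was at 8.07, 8.73 and 8.58 FPKM in siNC and 0.658, 0.591 and 0.738 in siP300+OGA (log2 -2.51 ± 0.12). The piRNA pathway genes GTSF1 and MAEL fell from 7.98 ± 1 to 1.34 ± 0.21 and from 5.41 ± 0.337 to 0.761 ± 0.147 FPKM. The meiotic genes HORMAD1 and SYCP3 fell from 25.4 ± 2.47 to 8.41 ± 0.264 and from 11.1 ± 0.383 to 4.73 ± 0.284 FPKM.

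Heat shock genes were higher throughout the list. HSF1, the main heat shock factor, binds inverted repeats of GAA, and promoters of 3 members are shown because such pairs, GAANNTTC or TTCNNGAA, lie in each, in capitals (RefSeq, GRCh38.p14, same window).
HSPA1A promoter, chr6:31815293-31815592, plus strand: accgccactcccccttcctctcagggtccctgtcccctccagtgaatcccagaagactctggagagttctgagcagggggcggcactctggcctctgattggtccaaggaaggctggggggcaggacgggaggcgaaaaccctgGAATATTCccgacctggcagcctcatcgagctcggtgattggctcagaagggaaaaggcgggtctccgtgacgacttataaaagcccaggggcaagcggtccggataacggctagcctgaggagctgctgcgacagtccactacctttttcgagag
HSPB1 promoter, chr7:76302423-76302722, plus strand: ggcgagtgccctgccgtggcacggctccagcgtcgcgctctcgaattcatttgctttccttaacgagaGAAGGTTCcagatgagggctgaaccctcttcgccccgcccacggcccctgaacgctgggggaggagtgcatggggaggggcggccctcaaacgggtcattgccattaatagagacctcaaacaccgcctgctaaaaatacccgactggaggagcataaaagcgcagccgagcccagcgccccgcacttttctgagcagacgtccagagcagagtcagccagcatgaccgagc
HSPA8 promoter, chr11:123062087-123062386, minus strand: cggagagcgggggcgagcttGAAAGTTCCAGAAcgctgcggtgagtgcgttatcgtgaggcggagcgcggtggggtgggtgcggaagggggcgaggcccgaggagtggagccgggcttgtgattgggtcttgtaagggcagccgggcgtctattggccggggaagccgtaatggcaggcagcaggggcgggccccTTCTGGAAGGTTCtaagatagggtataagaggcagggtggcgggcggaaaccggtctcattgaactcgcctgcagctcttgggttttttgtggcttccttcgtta
In the HSPA8 promoter each run of capitals holds both forms, overlapping. Searched on both strands, GAANNTTC was in 6.87% of the 27305 promoters and in 5 of the 14 heat shock genes (35.7%). TTCNNGAA was in 7.84% and in 2 of 14 (14.3%). The list was made of known heat shock genes, so these shares are no test of the pairs.

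All 14 heat shock genes passed as higher than control, against 30.6% of all genes (median 0.50, and 0.51 in siP300, where 9 passed). HSPA1A, the inducible HSP70, was at 9.63, 9.87 and 10.1 FPKM in siNC, 28.1, 28 and 26.7 in siP300 and 37.6, 35.6 and 36.3 in siP300+OGA (log2 1.79 ± 0.04; limma, adjusted p = 7.9e-11). HSPA1B, a near-identical copy that may share its reads, was at 8.19 ± 0.48 and 18.9 ± 0.979 FPKM in siNC and siP300+OGA. HSPB1, the small heat shock protein HSP27, was at 119, 119.9 and 117 FPKM in siNC and 300.1, 295 and 302 in siP300+OGA (log2 1.33 ± 0.04), and HSPA8, the constitutive HSC70, at 260.3, 252 and 263 FPKM in siNC and 526, 541 and 527 in siP300+OGA (log2 1.04 ± 0.03). For HSPA1A and HSPA8 the siP300+OGA libraries were above all 9 others, and siOGA was below control, at 6.72 ± 0.318 and 201 ± 7.35 FPKM. The cochaperone genes HSPH1 and DNAJA1 rose from 20.6 ± 0.959 to 44.6 ± 1.36 and from 60.1 ± 1.96 to 104 ± 0.913 FPKM. At the other end of the list, HSPA4 (log2 0.12) and HSP90AA1 (0.34) passed here but not with regional medians removed, nor did HSPA4 without an expression minimum or when any of 5 libraries was left out, or HSP90AA1 under quantile normalization. HSP90AB1 (0.28) was at 0 under quantile normalization.

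Targets of ATF4, the factor of the integrated stress response, were on the low side. Of 18 tested 15 were lower and 0 higher, against 30.5% and 30.6% of all genes (median -0.39, and -0.18 in siP300). SHMT2 passed as higher under 6 of the 19 alternatives, and as lower with regional medians removed. PSPH passed as higher with sample weights and when siNC library 3 was left out. ATF3, a stress-induced factor, was at 9.62, 9.78 and 9.23 FPKM in siNC, 12.2, 12 and 11.2 in siP300 and 4.79, 5.22 and 4.36 in siP300+OGA (log2 -0.87 ± 0.05 against siNC), so it was above control in siP300 and below in siP300+OGA. The serine synthesis gene PSAT1 was at 232 ± 13.6 and 137 ± 1.67 FPKM in siNC and siP300+OGA, and the folate enzyme gene MTHFD2 at 48.6 ± 0.645 and 28.7 ± 0.733. TRIB3 fell from 31.1 ± 0.679 to 18.4 ± 0.612 FPKM and DDIT4, an inhibitor of mTORC1, from 135 ± 2.38 to 80.3 ± 2.22. ATF4 itself was at 164 ± 1.68 and 125 ± 2 FPKM (log2 -0.39). Its promoter element TGATGCAA, searched on both strands, was in 0.923% of all promoters and in 1 of 15 matched list members.

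**Figure D5:**
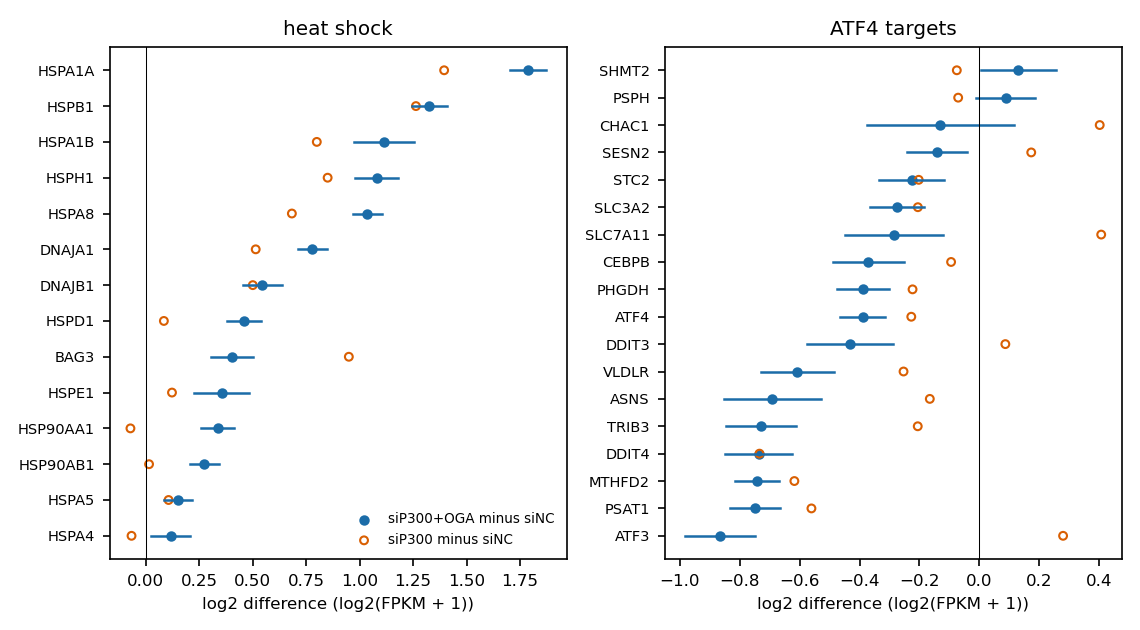
Log2 difference from siNC (log2(FPKM + 1)) of the 14 heat shock genes and 18 ATF4 targets, in siP300+OGA (blue, with 95% intervals from limma) and in siP300 (orange circles). The heat shock genes all lie to the right of 0 in siP300+OGA, and 15 of the 18 ATF4 targets pass to the left.

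Other stress and metabolic genes were mixed. Of 16 p53 targets tested, 6 were higher and 4 lower, against 30.6% and 30.5% of all genes (median 0.042). TP53I3 (log2 1.45) and GDF15 (-0.99) were at the ends. TP53I3 passed the minimum only through siP300+OGA and so had to be higher. Among members at 1 FPKM or more in both groups 5 of 15 were higher and 4 lower (median -0.0018). Of 5 interferon genes tested of 13, 3 were higher and 2 lower (median 0.47). The antiviral membrane protein IFITM1, a marker of pluripotent cells too, was at 201, 199.7 and 209 FPKM in siNC and 100.2, 97.2 and 95.9 in siP300+OGA (log2 -1.05 ± 0.05), whereas its neighbour IFITM3 was at 32.3, 30.5 and 32.6 FPKM in siNC and 71.5, 69.8 and 70.7 in siP300+OGA (log2 1.13 ± 0.04). A list of 10 genes held metallothioneins, which bind zinc, together with the zinc exporter SLC30A1 and the factor MTF1. Of the 10, 2 were higher (MT2A and SLC30A1) and 3 lower, all metallothioneins (median 0.07, and -1.0 in siP300). By voom on recovered reads 5 were higher. MT2A was at 58.4, 58.8 and 78.3 FPKM in siNC, 40.4, 34 and 31.5 in siP300 and 129, 99 and 109 in siP300+OGA, and MT1H at 189.9, 184 and 268 FPKM in siNC, 41.7, 38.1 and 34.3 in siP300 and 133, 103 and 110.4 in siP300+OGA. The metallothioneins are alike in sequence, and the third control library was the highest of its group for both MT2A and MT1H. MT2A was above and MT1H below control without overlap. The zinc exporter SLC30A1 was at 4.8 ± 0.23 and 13.1 ± 0.506 FPKM in siNC and siP300+OGA (log2 1.29).

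Cholesterol synthesis genes gave 12 higher and 1 lower of 23, against 30.6% and 30.5% of all genes (median 0.15). NSDHL also passed as lower with sample weights, with a replicate block and when siNC library 3 was left out. The sterol reductase gene TM7SF2 (log2 1.10) was among the higher. Of 21 glycolysis genes 10 were higher and 5 lower (median 0.11). Hexokinase HK1 rose from 12.9 ± 0.272 to 24.2 ± 0.541 FPKM and the glucose transporter SLC2A3 fell from 34.7 ± 0.986 to 23.8 ± 0.334. Of the 13 mitochondrially encoded genes 11 were higher and 0 lower (median 0.55), but under quantile normalization the median was 0, with 2 higher and 2 lower. MT-ND1, a complex I subunit, was at 2192, 2046 and 2367 FPKM in siNC and 3918, 3859 and 3891 in siP300+OGA (log2 0.82 ± 0.05).

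The cell cycle lists had medians close to 0. Of 17 S phase genes tested 5 were higher and 8 lower, against 30.6% and 30.5% of all genes (median -0.046, and -0.36 in siP300). The 5 higher became 3, with MCM2 and MCM7 lost, when siNC library 1 or 3 or siP300+OGA library 2 or 3 was left out, and MCM3, among the lower, lost its call in 10 of the 19 alternatives. The licensing factor CDT1 was the most displaced, at 93.2, 100.3 and 91.4 FPKM in siNC and 58.4, 60.6 and 59.9 in siP300+OGA (log2 -0.66 ± 0.05). Of 19 G2 and M phase genes 9 were higher and 3 lower (median 0.095), with MKI67 (log2 0.49) and BIRC5 (0.45) above control and BUB1B (-0.35) and CDK1 (-0.30) below.

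Some differences were shared by neighbouring genes. On chromosome 12, the 178 genes tested between 40 and 60 Mb had a median 0.44 above that of all genes, with 122 higher and 15 lower, while the 51 genes between 20 and 40 Mb had a median of -0.42. The 132 genes from 0 to 20 Mb had a median of -0.20. NANOG, GDF3 and DPPA3 lie there, and with regional medians removed they were at log2 -1.01, -0.61 and -1.03 against siNC. In siP300 the 40 to 60 Mb region was higher by 0.38 too, and in the siOGA libraries by 0.44, 0.41 and 0.42. Chromosome X was lower by 0.23 over 487 genes. Between siP300+OGA and siP300, the median over genes was lower by 0.25 on chromosomes 10 and 13 and by 0.23 on chromosome 15, each less the median of all genes. On chromosome 10 from 0 to 20 Mb, siP300 stood 0.60 above control and siP300+OGA did not (-0.017). The part of these regional differences in the comparisons with siP300 was not tested. Copy number was not measured, and its part in these values was not tested.

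On chromosome 14, 9 of 19 tested genes of the imprinted cluster between DLK1 and MEG9 were higher and none lower, against 30.6% and 30.5% of all genes (limma; the median of the 19 was 0.49, and that of the 77 tested genes from 100 to 120 Mb lay 0.27 above all genes). Of the higher genes, MIR410, MIR541 and SNORD114-3 averaged 0.476, 0.231 and 0.726 FPKM in siNC. They passed the expression minimum only through siP300+OGA and so had to be higher. The cluster was picked after its values were seen, since MIR410 was among the 12 largest rises. Its maternal transcript MEG3, a long noncoding RNA, was at 63.5, 63.8 and 59.7 FPKM in siNC and 94, 94 and 93.9 in siP300+OGA, and the paternally expressed DLK1 at 4.79, 4.61 and 4.36 FPKM in siNC and 7.85, 7.84 and 8.2 in siP300+OGA. MEG9 was at 5.25, 5 and 4.33 FPKM in siNC, 9.02, 8.07 and 8.01 in siP300, 9.72, 10.3 and 9.71 in siP300+OGA and 1.23, 1.38 and 1.39 in siOGA. The siP300+OGA libraries were above siNC without overlap in each, and MEG9 was lowest in siOGA. MIR656 had 36, 34 and 43 reads in siNC and 96, 96 and 100 in siP300+OGA, and MIR410 only 0, 1 and 1 against 8, 10 and 8. Both lie inside MEG9 on the same strand and the libraries were selected for poly(A), so these reads cannot be told apart from those of longer transcripts, and mature miRNAs were not measured. The mature miRNAs of these loci are given to show the seeds (bases 2 to 8, in capitals) the cluster can supply (RefSeq, GRCh38.p14, plus strand).
hsa-miR-410-5p: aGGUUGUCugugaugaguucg
hsa-miR-410-3p: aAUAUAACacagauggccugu
hsa-miR-656-5p: aGGUUGCCugugagguguuca
hsa-miR-656-3p: aAUAUUAUacagucaaccucu
No seed is shared among the 4.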

How the data were processed

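Libraries were poly(A)-selected and marked by strand with dUTP, with molecular identifiers, per the labels' protocols. Per the submitters' processing notes the genome was GRCh38, and the tools, whose roles are not given, were HISAT2 2.0.4, edgeR, cutadapt 1.9, DESeq2, StringTie 1.3.4d and UMI-tools. The values deposited by the authors are FPKM, and 1 line of the table was empty and was not analysed here. Each value was a whole multiple of 1 read's worth (100% within 0.01), which gave the reads. The library size implied was 1.016 to 1.033 times the reads in genes in siNC and siP300+OGA. It was 0.935 to 0.954 times in siOGA and 1.056 to 1.06 times in siP300. The divisor was therefore not the total of these reads, and how it was set is not given. Whether strand was used in counting is not given, so values of overlapping genes are uncertain. Intervals and tests cover these libraries only.

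Genes averaging 1 FPKM or more over siNC and siP300+OGA were tested in R 4.3.3 on log2(FPKM + 1) values. The limma 3.58.1 model took an intensity trend and held 12 libraries, which leaves 8 residual degrees of freedom. Differences are therefore on that scale, which understates changes of low genes. P-values were Benjamini-Hochberg adjusted over all 13008 genes and the threshold was 0.05. An exact permutation test of 3 against 3 cannot go below 0.1. On simulated data for this comparison, over 13008 genes, 94% of log2 changes of 1 and 74% of changes of 0.5 were found, with 8 false calls. The simulation gave all genes the same dispersion and changed only 100 genes by each amount. In the data far more genes differ and the spread varies by gene, so the false calls give no error rate for the genes called.

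The genes named were the targets, the 12 largest rises and falls (called, at least 2 FPKM in the higher group, groups not overlapping), 4 each way beyond all 9 other libraries, 4 each way nearest to siP300, list members with the largest changes or against their list, and cell type markers. Other members were chosen after their values were seen, and some genes named by the rule are left out. The members, lists and tests were chosen with earlier results of these data known. Lists are described by counts and medians, without a test, and over all genes tested 30.6% were higher and 30.5% lower. Genes under the minimum are given as levels only, and 1 listed YAP target was not analysed here. Values of some list members are not reported here. Promoters and miRNAs came from RefSeq tables of GRCh38.p14, matched by symbol.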

Additional observations from a re-analysis of the deposited data

How the results depend on the processing

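The comparison was recomputed under 19 alternatives: pseudocounts of 0.1 and 5, no expression minimum, a mean of at least 5 FPKM, a mean over all 12 libraries, median-ratio scaling, quantile normalization, a fit of only the 6 libraries, no intensity trend, sample weights, a replicate block, removal of regional medians in 20 Mb windows, voom on recovered reads, and each of the 6 libraries left out. Against 7950 genes called, 3982 higher and 3968 lower, a minimum of 5 FPKM called 4720 of fewer genes tested, 2291 higher and 2429 lower. Leaving out 1 library called 7308 to 7415. Voom on the recovered reads called 8152. Removing regional medians called 7656, kept 6779 of the 7950 calls and turned 36. With the replicate block 7965 were called. Deviations of same-numbered libraries did not move together (r = -0.033, 0.026 and -0.040), so these values show no pairing by number. Whether same-numbered libraries were prepared together was not tested.

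Of the genes with a log2 difference of at least 1, 666 in the main analysis (336 higher, 330 lower), a pseudocount of 0.1 gave 1225 (604 and 621), a pseudocount of 5 gave 168 (80 and 88), a minimum of 5 FPKM 344 (157 and 187) and voom 1328 (652 and 676). This count follows the pseudocount by construction.

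The median of the fibroblast list turned to -0.010 without a minimum, and that of the YAP and TEAD list to -0.66 with a minimum of 5 FPKM, where fewer members are tested. Medians of several other lists kept their sign but ran widely, from 0.34 to 1.12 for primed markers, 0.18 to 1.13 for BMP, 0.46 to 1.57 for ERK, 0.13 to 0.35 for NODAL, -1.60 to -0.39 for germline, 0.38 to 0.71 for contractile, 0.029 to 2.35 for trophectoderm, 0.0043 to 0.66 for hypoblast and -1.24 to -0.0028 for 8-cell genes. Quantile normalization turned GAPDH (-0.021), MT-ND2 (-0.40), MT-ND4L (-0.22) and MT-ND5 (-0.11). Removing regional medians turned HMGCS1 (0.13), DHCR7 (-0.043), TPI1 (0.11), LDHB (0.31), SHMT2 (-0.29), MDM2 (-0.074) and MCM4 (0.065); the cause was not tested. Of 371 genes described and tested, 299 were called, and 257 of these neither lost the call nor turned under any of the 19 alternatives that tested them.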
